A study of Arabidopsis thaliana with 2 samples.

Results

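The loci described here are the genes of the chloroplast genome (ATCG identifiers) that received hits in RNA-Seq libraries of the *Arabidopsis thaliana* central cell. They were chosen by identifier alone: every locus whose name starts with ATCG and that is listed in at least 1 of the 2 replicates, CC1 and CC2, is a member. This gave 86 loci of the 17419 that either replicate lists, 71 of them in CC1 and 72 in CC2. The samples are wild-type central cells of the accession Landsberg *erecta*, taken from the mature female gametophyte by laser-assisted microdissection (LAM), with sections of about 450 cells pooled per replicate. There is 1 condition with 2 replicates and no control group, so that no test was possible and all differences between CC1 and CC2 are described without a p-value. The SD of 2 values holds the dissection, the amplification and the cells together, and in pooled material fewer cells with chloroplast RNA and less of it per cell cannot be told apart. According to the paper, the cDNA of CC1 was lower in yield and slightly smaller in its range of sizes than that of CC2. The paper also reports signs of fungal contamination in the RNA of CC1, and considers an effect on the alignments unlikely. The part of these in the differences between CC1 and CC2 was not tested.

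The central cell is the cell of the embryo sac from which the endosperm forms after fertilization. Most plant cells carry plastids, and each plastid typically holds copies of a small circular genome, called the chloroplast genome after the green form of the organelle. This genome encodes subunits of the photosystems, the cytochrome complex, the ATP synthase and the NDH complex, the large subunit of Rubisco, ribosomal proteins, ribosomal and transfer RNAs and the core of an RNA polymerase. Most other plastid proteins, including the sigma factors that direct this polymerase, are encoded in the nucleus. In plastids a poly(A) tail is a transient mark on RNAs that are being degraded, in contrast to the stable tails of nuclear mRNAs, and the cDNA of both libraries was primed with poly(T).

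The values are hits, which are read alignments weighted by the authors and summed per locus. A read could count toward up to 10 places in the genome, weighted by the uniquely aligned reads nearby. Where a read with several alignments had no such reads at any of them, all its alignments were discarded. Listing in a replicate required 5 hits or more, of which 1 or more had to lie close to the 3′ end of a transcript. Absence from a list is therefore no measured zero. Hits were scaled per 1000000 listed hits of the replicate (HPM), from totals of 15257122 hits in CC1 and 14857500 in CC2. HPM are not per length, and the order of loci by HPM is an order of hits and not of transcript copies. Intervals are 95% Wilson intervals, which cover counting error only, since amplified reads are not independent molecules. The central cell label was compared with marker genes: all 6 central cell markers, *FWA*, *FIS2*, *AGL80*, *AGL61*, *DME* and *MEA*, were listed in both replicates, with summed levels of 1573 HPM in CC1 and 1302 in CC2. All 5 egg cell *EC1* genes were also listed in both (1355 and 902 HPM), the synergid gene *MYB98* in neither, and 2 of the 3 integument genes in at least 1, with 4.72 and 5.88 HPM in sum. Of all loci listed in at least 1 replicate 77.1% were listed in both.

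The chloroplast genome of the RefSeq assembly TAIR10.1 has 154478 bp and 129 annotated genes. It holds a pair of exact inverted copies of 26264 bp, at Pltd:84171-110434 and Pltd:128215-154478, and 34.0% of all its 50-base windows occur more than once within it. Of these windows 1.21% also occur in the mitochondrial genome and 2.43% in the nuclear genome, and 64.6% are found once in all. The RefSeq records do not pair their chloroplast genes with ATCG identifiers. Notes on nuclear genes that name an ATCG locus as their closest protein match describe a few of the 86 members, of which 4 are placed on the genome here. The others are given by identifier.

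The sequences of these 4 genes are shown because the cDNA was primed with poly(T), which pairs with runs of A. Each is a 30-base window of the sense strand, 5′ to 3′, from RefSeq TAIR10.1, and capitals mark the longest run of A between the first and last base of the gene, introns included. The genes are *cemA* (ATCG00530, Pltd:60741-61430, plus strand), an envelope membrane protein linked to proton extrusion, *rpl20* (ATCG00660, Pltd:68512-68865, minus strand), a ribosomal protein, *clpP* (ATCG00670, Pltd:69910-71882, minus strand), a subunit of the Clp protease, and *rpl2* (ATCG01310), another ribosomal protein with a copy in each inverted repeat (Pltd:84337-85843, minus strand, and Pltd:152806-154312, plus strand).
cemA: atggcAAAAAAgaaagcattcattcctttt
rpl20: tatacaatttcgaatgacatAAAAAAAtaa
clpP: tcacaccgtAAAAAAAAAAAAAgacacttt
rpl2: tccaattggtagAAAAAAAcccgtaacccc
The longest runs were 6, 7, 13 and 7 bases in this order. Over all 129 chloroplast genes the median of the longest run was 5 bases and the maximum 14, and 32.6% of the genes held a run of at least 7. The run of *rpl20* ended 3 bases before the last base of the gene, whereas that of *cemA* lay 679 bases before it. No read positions were used, and whether any of these runs served as a priming site was not tested.

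The chloroplast loci took a small share of all hits, and the share in CC1 was above that in CC2. They held 121944 hits in CC1, or 0.799% of listed hits (95% interval 0.795 to 0.804), and 64801 hits in CC2, or 0.436% (0.433 to 0.440). The mean was 0.618% ± 0.257 (SD, n = 2), and the share was 1.83-fold higher in CC1. Loci listed in a single replicate carried most of this difference. Over the 57 loci listed in both, the shares were 0.493% and 0.419%, a ratio of 1.18. The 14 loci listed in CC1 alone held 46695 hits, 38.3% of all chloroplast hits of that replicate, whereas the 15 listed in CC2 alone held 2621 hits, or 4.05%. The 14 listed mitochondrial loci held 0.0830% of hits in CC1 and 0.108% in CC2, of which 1 locus held 49.8% and 46.6%. Over the 7 mitochondrial loci listed in both, the median log2 ratio of CC2 to CC1 was -0.68, with 3 loci at least 2-fold higher in CC1 and 0 in CC2, so that the sum and the median differed in direction.

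Fewer chloroplast loci than loci in general were listed in both replicates. Of the 86 loci 57 were listed in both (66.3%), beside 13426 of 17419 over all loci (77.1%) and 7 of 14 mitochondrial loci. Without the 12 loci of the identifier stretches described below, chosen after their values were seen, it was 57 of 74, close to the share over all loci. Listed in CC1 alone were 14 of the 86 chloroplast loci, beside 1028 of the 17419 loci. Listed in CC2 alone were 15 of the 86, beside 2965 of the 17419. The single-replicate loci differed in hits. The median was 192.5 hits for the 14 of CC1, beside 48 over all loci listed in CC1 alone. It was 17 hits for the 15 of CC2, beside 40 over all loci listed in CC2 alone. In CC1, 4 of the 14 chloroplast loci with at least 1000 hits were not listed in CC2 (28.6%), beside 6 of 2613 nuclear loci (0.230%) and 0.38% of all loci with as many hits. In CC2, 1 of 12 was not listed in CC1 (8.33%), beside 0.209% of all loci. No zero was measured for these loci, so that their levels in the other replicate are unknown.

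The hits were concentrated on few loci. Of the chloroplast hits, the leading locus held 23.3% (CC1) and 36.8% (CC2), and the first 5 loci held 69.1% and 71.2%. Nuclear hits were less concentrated, with 1.92% and 2.16% on the leading locus and 7.32% and 8.70% on the first 5, out of many more loci. The 14 chloroplast loci with at least 1000 hits in CC1 held 90.3% of the hits, and the 12 such loci in CC2 held 87.4%. At the other end, 24 loci in CC1 and 40 in CC2 had fewer than 100 hits and together held 0.789% and 2.52%. The lowest listed values were 10 hits for ATCG00610 in CC1 and 5 hits for ATCG00700 in CC2. The median listed chloroplast locus had 179 hits in CC1 and 84.5 in CC2, below the nuclear medians of 292 and 229.

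**Figure D1:**
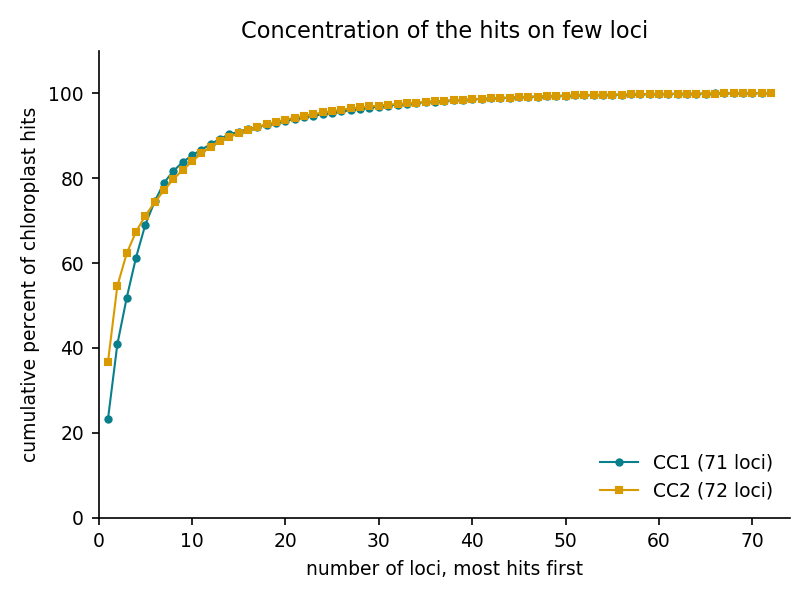
Cumulative percent of chloroplast hits held by the loci in order of their hits, drawn for CC1 and CC2. The curves start at 23.3% and 36.8% for the first locus and reach 85.4% and 84.0% at the tenth.

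ATCG00470 had the most hits of all chloroplast loci in both replicates. It received 28460 hits in CC1 (1865 HPM) and 23846 in CC2 (1605 HPM), a mean of 1735 ± 184 HPM (SD, n = 2). This placed it at rank 46 of all 14454 loci listed in CC1 and rank 58 of the 16391 in CC2. ATCG00380 followed in the mean over both, with 13326 and 11536 hits (825 ± 68.6 HPM) and ranks 125 and 132. In each replicate ATCG00470 stood above ATCG00380 by more than they differed between CC1 and CC2: 2.14-fold in CC1 and 2.07-fold in CC2, beside differences between the replicates of 1.16-fold and 1.12-fold.

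The next 4 loci in this order had between 129 and 435 HPM in CC1. ATCG00740 had 6638 hits in CC1 and 4967 in CC2 (385 ± 71.2 HPM). ATCG01020 had 5385 and 3325 hits (288 ± 91.3 HPM). Their values overlapped between the replicates, since ATCG01020 in CC1 (353 HPM) lay above ATCG00740 in CC2 (334 HPM). ATCG00830 had 3353 and 1852 hits (172 ± 67.2 HPM), and ATCG00440 had 1967 and 2438 hits (147 ± 24.9 HPM). ATCG00440 lay above ATCG00830 in CC2 and below it in CC1, so that their order was not shared.

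The last 4 of the 10 leaders, which were taken among loci listed in both replicates, lay close together. ATCG00820 had 1567 and 1707 hits (109 ± 8.62 HPM), and ATCG00170 had 1536 and 1333 hits (95.2 ± 7.74 HPM). ATCG00800 had 1631 and 1196 hits (93.7 ± 18.7 HPM), and ATCG00480 had 1315 and 1061 hits (78.8 ± 10.4 HPM). Both values of ATCG00820 lay above both of ATCG00170, whereas the ranges of ATCG00170 and ATCG00800 and those of ATCG00800 and ATCG00480 overlapped. Of the 10 leaders 8 had the lower HPM in CC2, and ATCG00440 and ATCG00820 had the higher HPM in CC2. Among the 57 chloroplast loci listed in both replicates 73.7% were lower in CC2, beside 53.6% of all loci listed in both. The leaders differed between the replicates by 1.12-fold to 1.76-fold.

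**Figure D2:**
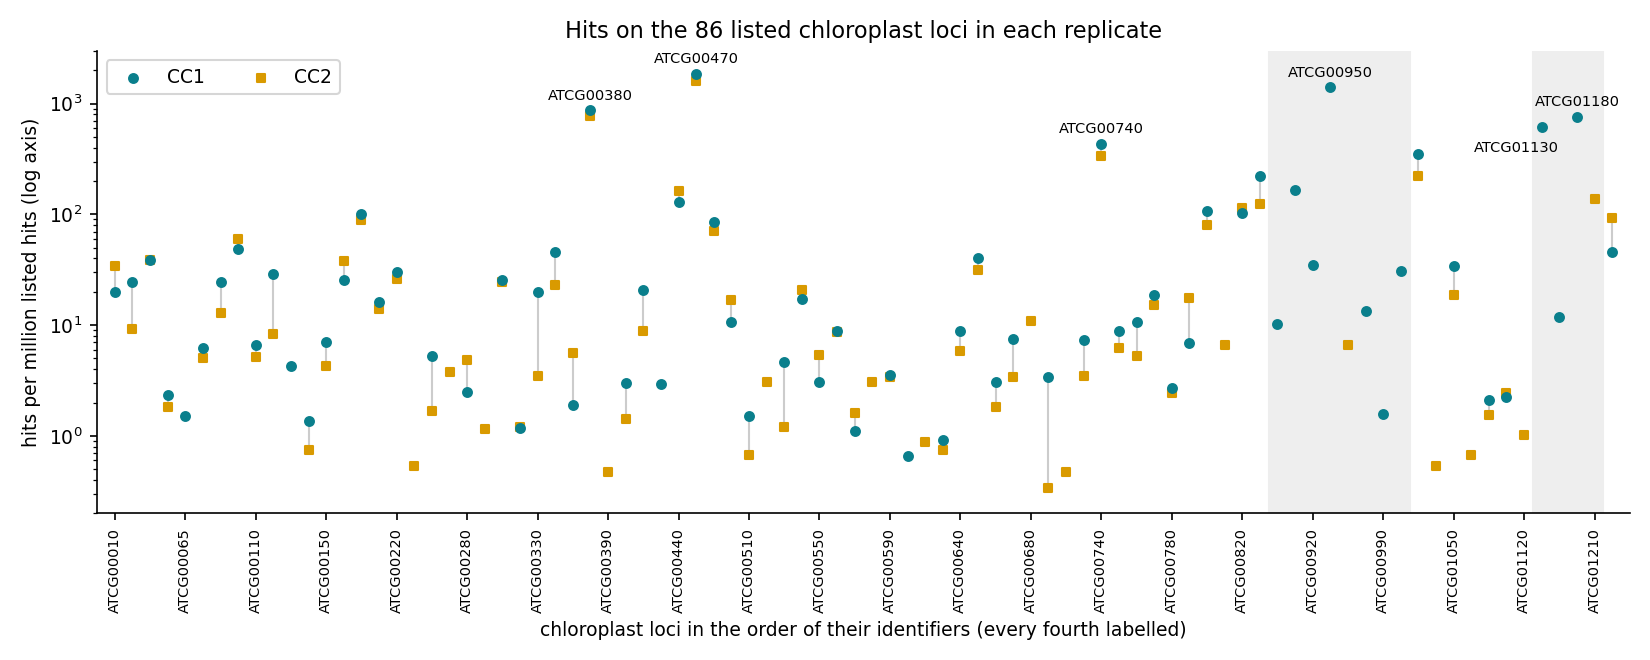
HPM of the 86 chloroplast loci in CC1 (circles) and CC2 (squares) on a log axis, in the order of their identifiers, with a grey line joining the values of a locus listed in both. In the shaded stretches ATCG00840 to ATCG01000 and ATCG01130 to ATCG01210 no locus has both symbols, and ATCG00950, ATCG01180 and ATCG01130 stand at 1401, 760 and 621 HPM in CC1 alone.

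The loci listed in CC1 alone were led by 3 that were among the most abundant chloroplast loci of that replicate. ATCG00950 had 21368 hits, or 1401 HPM (interval 1382 to 1419), and held rank 69 of all loci of CC1. ATCG01180 had 11595 hits (760 HPM, 746 to 774) and ATCG01130 had 9475 hits (621 HPM, 609 to 634). These 3 held 42437 hits, 34.8% of the chloroplast hits of CC1, and were not listed in CC2. ATCG00900 had 2550 hits (167 HPM) and ATCG00920 had 532 hits (34.9 HPM). Of the remaining loci of this kind, ATCG01000, ATCG00970, ATCG01170 and ATCG00840 had 467, 206, 179 and 157 hits. ATCG00130, ATCG00430, ATCG00990, ATCG00065 and ATCG00610 had between 10 and 65 hits.

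The loci listed in CC2 alone had few hits with 1 exception. ATCG01210 had 2029 hits, or 137 HPM, and was 1 of the 12 loci above 1000 hits in that replicate. ATCG00680 followed with 162 hits (10.9 HPM), ATCG00810 with 99, ATCG00960 with 98 and ATCG00270 with 56. The remaining 10, ATCG00520, ATCG00580, ATCG00290, ATCG01120, ATCG00620, ATCG01060, ATCG00240, ATCG01030, ATCG00390 and ATCG00710, had between 7 and 46 hits. Of the 15 loci 13 had fewer than 100 hits and 8 fewer than 20. Low values are usual for such loci, with a median of 40 hits over all loci listed in CC2 alone.

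Seen along the identifiers, most hits of single-replicate loci fell into 2 stretches, which were chosen after their values were seen. The stretch ATCG00840 to ATCG01000 has 8 listed loci, 7 of them in CC1 alone and ATCG00960 in CC2 alone, holding 25303 hits (CC1) and 98 hits (CC2). The stretch ATCG01130 to ATCG01210 has 4 listed loci, 3 of them in CC1 alone and ATCG01210 in CC2 alone, with 21249 and 2029 hits. None of these 12 loci was listed in both replicates, whereas 57 of the other 74 were. Together the 12 held 38.2% of the chloroplast hits in CC1 and 3.28% in CC2. Without them the shares of all listed hits were 0.494% and 0.422%, and the ratio of CC1 to CC2 was 1.17 in place of 1.83.

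**Figure D3:**
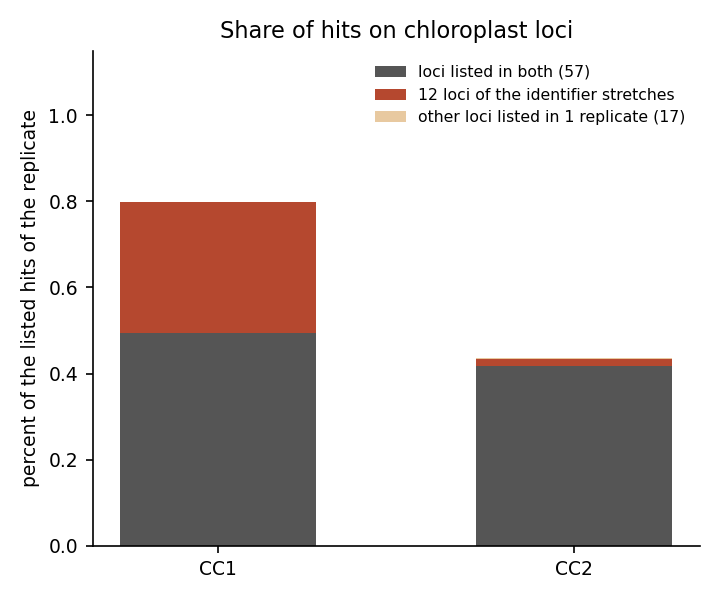
Percent of listed hits on chloroplast loci in CC1 and CC2, with bars from 0 split into the 57 loci listed in both replicates, the 12 loci of the identifier stretches and the 17 other loci listed in 1 replicate. The loci listed in both take 0.493% in CC1 and 0.419% in CC2, and the stretches 0.305% and 0.0143%.

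Fractional values, counted here as any deposited value that differs at all from a whole number, can arise where hits were weighted or shared out between loci. In CC1 they were found at 4 of the 10 loci of the stretches and at 8 of the other 61 (13.1%), and in CC2 at 1 of 2 and at 9 of 70 (12.9%). Over all loci the shares were 24.4% in CC1 and 24.96% in CC2. The stretches hold few values and were chosen with these known, and no test was made. In the RefSeq annotation 31 of the 129 chloroplast genes lie within the inverted repeats, 7 of them ribosomal RNA genes and 14 transfer RNA genes. Of the members only ATCG01310 could be placed there. The part of repeated sequence in the listing of the 12 loci was not tested. Nor was that of the rule that discarded repeated reads without uniquely aligned reads nearby.

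Among the 57 loci listed in both replicates, HPM tended to be lower in CC2. It was lower at 42 loci (73.7%, beside 53.5% of nuclear loci) and higher at 15, and the median log2 ratio of CC2 to CC1 was -0.31, beside -0.07 over all loci. At least 2-fold higher in CC1 were 12 loci (21.1%), beside 15.5% of all loci, and at least 2-fold higher in CC2 were 3 (5.26%), beside 14.7%. Egg cell and central cell markers moved in the same direction. All 5 *EC1* genes of the egg cell were lower in CC2, with a median log2 ratio of -0.71, and so were all 6 central cell markers, with a median of -0.17. The integument markers were divided: *BAN* had 72 hits in CC1 and 17 in CC2, whereas *TT12* was listed in CC2 alone with 70.4 hits. The part of other cells in the chloroplast values was not tested. The median difference was 1.479-fold beside 1.504-fold at nuclear loci, which were not matched in hits here. As a description across loci, which share their libraries and are not independent replicates, the Spearman correlation of the replicates was 0.924 for the 57 loci and 0.851 for the nuclear loci listed in both.

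**Figure D4:**
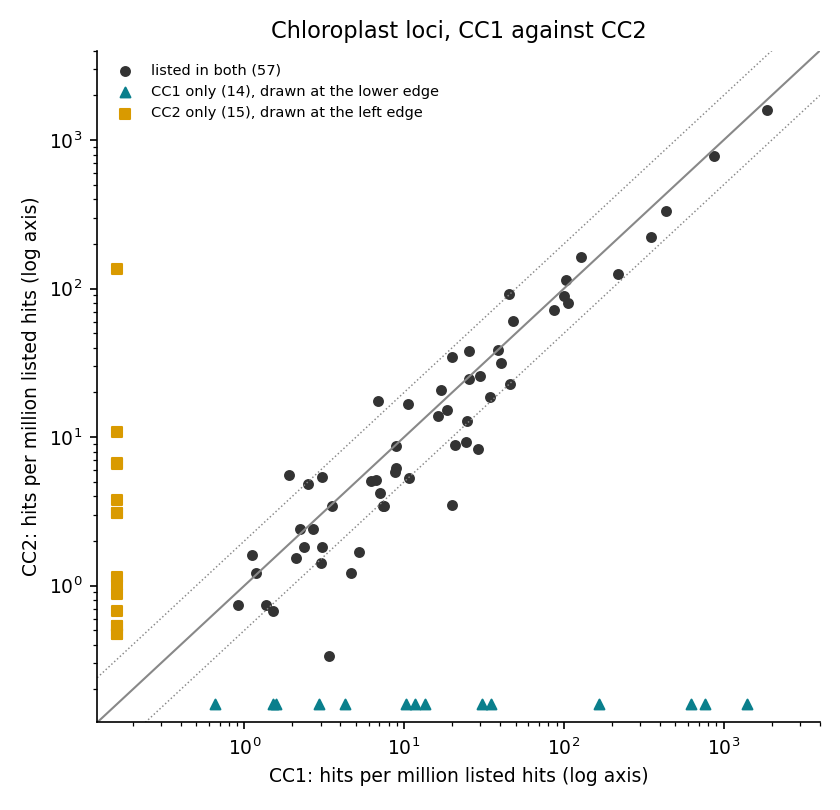
HPM in CC2 against HPM in CC1 on log axes, with a solid line for equal values, dotted lines for 2-fold differences, circles for the 57 chloroplast loci that both replicates list, and loci of a single replicate drawn at the lower edge (CC1 only, 14) or the left edge (CC2 only, 15). Of the circles 42 lie below the line of equal values, 12 at or beyond the 2-fold line toward CC1 and 3 at or beyond that toward CC2.

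The differences between the replicates were larger at loci with few hits. Of the 23 loci with a mean under 100 hits, 8 differed at least 2-fold (34.8%, beside 52.2% of nuclear loci with as many hits). The median difference was 1.70-fold, beside 2.07-fold at these nuclear loci. Of the 23 loci with 100 or more but under 1000 hits, 6 did (26.1%, beside 31.2%), with a median of 1.52-fold, beside 1.56-fold. Of the 11 loci with at least 1000 hits, 1 did (9.09%, beside 4.30%), with a median of 1.27-fold, beside 1.21-fold. The 1 locus in the last band was ATCG01310, which is 1 of the copies of *rpl2*.

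The largest ratios among loci that reached 50 hits in each replicate were toward CC1. ATCG00330 had 305 hits in CC1 and 52 in CC2 (5.71-fold, log2 ratio of CC2 to CC1 -2.51). ATCG00120 had 440 and 124 hits (3.46-fold), and ATCG00020 had 372 and 137 hits (2.64-fold). Toward CC2 the ratios were smaller. ATCG00790 had 105 and 260 hits (2.54-fold), ATCG01310 had 694 and 1372 (2.03-fold), and ATCG00010 had 304 and 512 (1.73-fold). The value of ATCG01310 depends on how hits were divided between the identical copies of *rpl2*, and the identifier of the other copy is not given in the sources used here, so that the ratio is not that of *rpl2* as a whole. The other loci at least 2-fold higher in CC1 were ATCG00250, ATCG00410, ATCG00420, ATCG00510, ATCG00530, ATCG00670, ATCG00700, ATCG00720 and ATCG00760, and the third toward CC2 was ATCG00360 with 29 and 83 hits. ATCG00700, with 52 and 5 hits (10.1-fold), had too few hits for the comparison of ratios.

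A further 41 loci were listed in both replicates, with mean levels between 0.829 and 54.2 HPM and a median of 5.64. ATCG00090 led them with 737 hits in CC1 and 894 in CC2. ATCG00040 had nearly the same level in both, with 590 and 574 hits. ATCG00340, with 698 and 340 hits, lay just inside the 2-fold limit (1.999-fold), and ATCG00760, with 163 and 79 hits, just outside it (2.01-fold). The median level of all 57 loci was 12.2 HPM, beside 21.7 HPM for nuclear loci listed in both.

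The other loci with a described product had few hits compared with the leaders. Per length of the gene, introns included, *rpl20* had 133 hits per kb in CC1 and 76.3 in CC2, *cemA* had 103 and 26.1, and *clpP* had 57.8 and 25.8. The authors assigned hits to transcripts, so that a length with introns gives too low a value where a gene has introns. These values were also not corrected for the 3′ bias of the libraries. They give no order of the 3 genes per length of transcript. In hits, *cemA* had 71 in CC1 and 18 in CC2, *rpl20* 47 and 27, and *clpP* 114 and 51. All 3 were thus lower in CC2, as were 73.7% of the 57 chloroplast loci listed in both replicates. No 50-base window of *rpl2* is found once in the genome, since its copies are identical, whereas all windows of the other 3 genes are. ATCG00430 had 45 hits in CC1 and was not listed in CC2. A note on a nuclear gene names it as protein G of the photosystem II reaction center. It was not matched to a chloroplast gene of the RefSeq records here, and its role was not checked.

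A copy of chloroplast sequence in the nucleus could draw hits from a member, and the annotation names 1 such case. AT4G13285 on chromosome 4 (4:7738680-7738867, TAIR10.1) is annotated as a pseudogene of ATCG00420 and was not listed in either replicate. ATCG00420 itself had 316 hits in CC1 and 131 in CC2, all whole numbers.

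Nuclear genes for plastid transcription and RNA processing were listed in both replicates with 1 exception of 27. They comprise 8 polymerases and sigma factors, 12 proteins associated with the plastid-encoded polymerase (PAPs) and 7 RNA processing factors. The exception was the sigma factor gene *SIG4*, which neither replicate listed. All 26 listed genes were thus listed in both, beside 77.1% of all loci listed in at least 1 replicate. The 27 genes summed to 795 HPM in CC1 and 741 in CC2, with a median level of 25.4 HPM over the 26 listed. The list as chosen also held, and lost after the values were seen, *RPOTm*, the phage-type polymerase of mitochondria, with 651 and 304 hits, and with it the sums were 838 and 762 HPM.

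The 12 PAP genes had nearly the same sum in CC1 and CC2, with 464 and 467 HPM and a median log2 ratio of CC2 to CC1 of 0.04. *PAP9* was the highest of them, with 1214 and 1235 hits (81.4 ± 2.53 HPM). The 8 plastid polymerases and sigma factors summed to 169 and 123 HPM, with a median log2 ratio of -0.33 (-0.54 with *RPOTm*). *RPOTp*, the phage-type polymerase of plastids, had 506 and 232 hits, and *RPOTmp*, the phage-type polymerase found in both organelles, had 659 and 605. The RNA processing genes summed to 163 and 152 HPM. Among them the gene for the plastid polynucleotide phosphorylase (*PNPase*), which degrades and adds tails to RNA, had 272 and 262 hits, and that for the endonuclease RNase E (*RNE*) had 809 and 489. Of the 26 listed plastid genes 3 differed at least 2-fold (11.5%, beside 30.2% of all loci listed in both): *RPOTp* and *PAP2* (311 and 147) were higher in CC1, and the exonuclease gene *RNR1* (22 and 223) was higher in CC2.

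**Figure D5:**
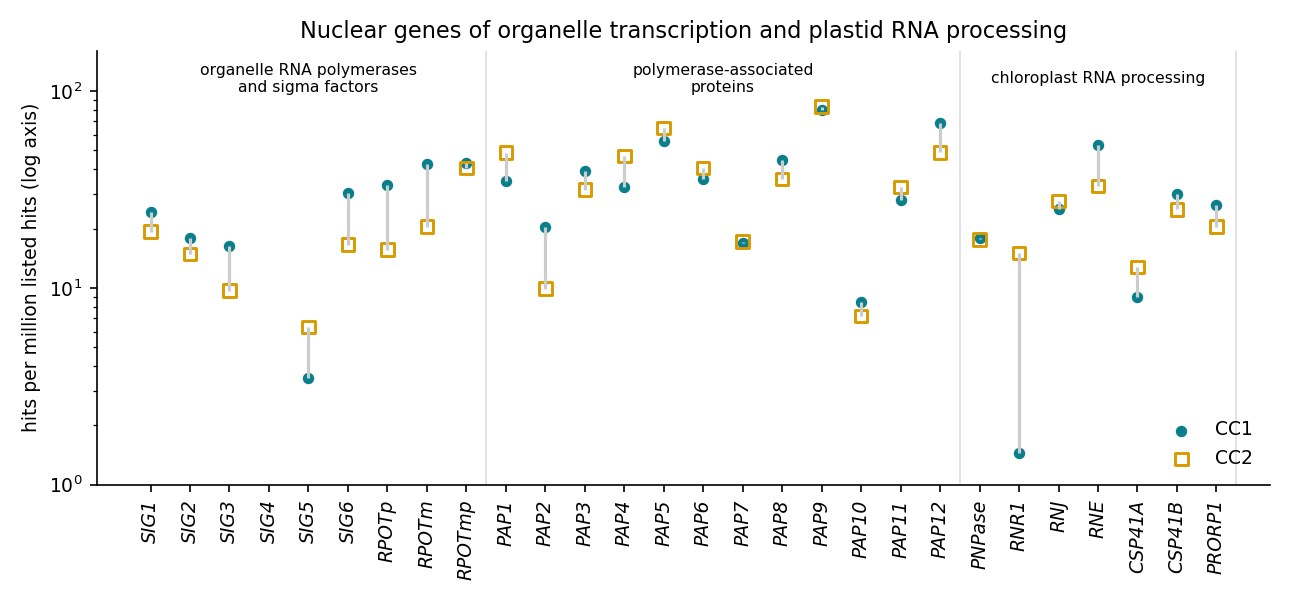
HPM of the nuclear genes for organelle transcription and plastid RNA processing in CC1 (circles) and CC2 (open squares) on a log axis, grouped by role, with *SIG4* left without a symbol because neither replicate listed it and *RPOTm* being the mitochondrial polymerase. The 12 PAP genes sum to 464 and 467 HPM, *PAP9* is the highest at 81.4 HPM in the mean, and *RNR1* has the widest gap between the replicates, with 22 and 223 hits.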

How the data were processed

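Poly(T)-primed, amplified cDNA of central cells was sequenced on the SOLiD platform by the authors, who aligned the reads with TopHat 1.2 to TAIR10 (up to 10 alignments per read), weighted alignments by uniquely aligned reads nearby and shared out hits that fell on several loci. The deposited values, which the authors made in this way, are expected counts, estimated and often fractional numbers of hits on a locus that were not normalized, from libraries without strand information. Chloroplast loci were taken by identifier, and hits were scaled per 1000000 listed hits of each replicate (15257122 in CC1, 14857500 in CC2). A locus absent from a replicate entered sums as 0 and no ratio. The 2 samples are named as replicates by the labels, and with 1 condition no test was made.

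The loci named were the 10 with the highest mean HPM among those listed in both replicates and the 5 with the most hits in each single-replicate set. Of those with 50 hits or more in both, the 3 with the largest ratio toward CC1 and toward CC2 were also named. Members, gene lists and rules were chosen with earlier results of these data known. Other loci were named after their values were seen. Alternatives were hit minimums of 10 and 20, other totals, thinning to the smaller total, TMM (edgeR 4.0.16) and median-of-ratios factors (DESeq2 1.42.0, R 4.3.3), a nuclear total, leaving out the leading locus, and leaving out each replicate. Gene models, notes and sequences came from RefSeq TAIR10.1. The scripts were tested on simulated data. They used Python 3.11.15, with pandas 2.3.3 and numpy 2.4.6 for tables, scipy 1.17.1 for intervals and matplotlib 3.10.9 for plots. Results on 1 annotated locus are not reported here.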

Additional observations from a re-analysis of the deposited data

How the results depend on the processing

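The ratio of CC1 to CC2 of the chloroplast share, 1.83, was 1.17 without the 12 loci of the identifier stretches and 1.18 with only loci listed in both replicates, alternatives that were both added after seeing the data. Without the leading chloroplast locus it was 2.22. The share itself, 0.618% in the mean, was 0.436 to 0.799 with 1 replicate left out and 0.502% with all weighted alignments of the library as the total. With minimums of 10 and 20 hits, 56 and 50 loci were listed in both replicates, and 57 after thinning. Thinning could hardly remove a chloroplast locus and is no check here. The totals were close, and the lowest chloroplast value in CC1, the thinned replicate, was 10 hits, above the minimum of 5. The median log2 ratio of -0.31 was -0.23 with TMM and -0.24 with median-of-ratios factors, under which the median of all loci was 0.01 and -0.0003. For the 26 loci named by rule, 72 of 78 levels under other scalings stayed within the spread of the replicates or the counting interval. TMM and median-of-ratios factors lay near 1 and moved the replicates in opposite directions (TMM 1.03 in CC1 and 0.973 in CC2). A mean over both could therefore hardly move, and the count says little about stability. Leaving out a replicate gives the value of the other one and is no check of stability. The other 6 levels were levels under these factors of loci listed in CC1 alone: ATCG00950 (1363 and 1369 HPM), ATCG01180 (740 and 743) and ATCG01130 (605 and 607), for which the spread is the counting interval only. No paired analysis was possible because there is 1 group. With 2 libraries, an SD is a rough measure of spread, and loci under 100 hits are limited by depth.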
